A study of Mus musculus with 6 samples.

Results

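The 10 genes described here store, move or sense iron in the cell, and they were chosen by name from the 24062 genes counted in RAW264.7 macrophages. They are the ferritin genes Fth1 and Ftl1, the iron exporter gene Slc40a1, the uptake genes Tfrc and Trf, the metal transporter genes Slc11a1 and Slc11a2, the iron regulatory protein genes Aco1 and Ireb2, and the ferritin receptor gene Ncoa4. RAW264.7 is a mouse macrophage cell line, although the sample labels give bone marrow as the tissue. M0 macrophages received no polarizing agent, M1 macrophages received LPS at 100 ng/mL with IFN-γ at 20 ng/mL for 24 h, and M2 macrophages received IL-4 at 20 ng/mL for 24 h. These doses are those of the labels and the study's methods, while a figure legend of the study gives lower doses of both cytokines. RM0, RM1 and RM2 macrophages came from the same treatments and then received 10 Gy of gamma radiation and a further 24 h of incubation. The sources do not say whether non-irradiated cells had this further 24 h. If they did not, irradiation and added time since the treatment cannot be told apart in any comparison of irradiated with non-irradiated libraries. RNA from several wells was pooled into 1 library for each of these 6 conditions, so no difference between 2 libraries has a replicate check. The libraries held between 17894937 (M2) and 18870516 (RM1) counted reads.

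Iron inside cells is stored in ferritin, a hollow shell built of heavy (FTH1) and light (FTL1) subunits, and is exported by ferroportin, the product of Slc40a1. The transferrin receptor (Tfrc) takes up iron bound to transferrin (Trf), and the endosomal transporter DMT1 (Slc11a2) moves it into the cytosol. When iron is scarce, the iron regulatory proteins IRP1 (Aco1) and IRP2 (Ireb2) bind iron-responsive elements, which are short hairpins in mRNA, and thereby block the translation of ferritin and stabilize the mRNA of Tfrc. Macrophages recycle the iron of old red cells, and during infection they are known to hold iron back from microbes.

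The iron regulatory proteins are known to bind ferritin and Tfrc mRNAs, so a hairpin found there is no test of these data. The hairpins through which these proteins read ferritin, ferroportin and transferrin receptor mRNAs are printed here because 4 of the 10 genes share them. They were found by a search of the GENCODE M21 transcripts, on the transcribed strand only, for a C, 5 bases, the loop CAGTGN and 5 bases that pair with the first 5, with G-T pairs allowed. Capitals mark the bulged C and the loop of 6 bases, and each run is 26 bases long, from 5′ to 3′:
Fth1: cctgCttcaaCAGTGCttgaacggaa
Ftl1: cttgCttcaaCAGTGTttgaacggaa
Slc40a1: acttCagctaCAGTGTtagctaagtt
Tfrc element 1: ttatCggaagCAGTGCcttccataat
Tfrc element 2: ttatCgggagCAGTGTcttccataat
Tfrc element 3: atatCggagaCAGTGAtctccatatg
Tfrc element 4: ttatCgggaaCAGTGTttcccataat

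On GRCm38 the Fth1 hairpin lies at chr19:9982734-9982759 on the + strand, the Ftl1 hairpin at chr7:45459780-45459805 on the - strand and the Slc40a1 hairpin at chr1:45925466-45925491 on the - strand, each in exon 1 and in the 5′ UTR. The 4 Tfrc hairpins lie in the 3′ UTR, in exon 19 on the + strand of chromosome 16, and begin at 32631221, 32631600, 32631665 and 32631712. The Fth1 and Ftl1 runs share 24 of 26 bases and differ by C2T and C16T, with the Fth1 base first and positions counted from 1 at the 5′ end of the printed run. Such a hairpin was found in a UTR of 160 of 21901 protein-coding genes (0.731%) and in a 5′ UTR of 31 genes (0.142%). In the 1 transcript searched for each, the other 6 genes held no match. This says only that these letters with this pairing were not found in that transcript. The share over all genes counted a hairpin in any protein-coding transcript of a gene, so it was not measured in the same way.

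Reads per gene were scaled by the TMM method, which sets the libraries on a common scale through genes that differ little between them, and are given in CPM, the count scaled to a common library total. Per kilobase of transcript, Fth1 was at a mean of 24292 CPM and Ftl1 at 8904 CPM over the 6 libraries. Slc11a1 followed at 142.8 and Tfrc at 63.9, while Slc11a2 was at 34.9, Aco1 at 15.1, Ireb2 at 10.8 and Ncoa4 at 9.74. Trf, at 1.79, and Slc40a1, at 0.344, were the least abundant on the same scale. The highest library exceeded the lowest 7.13-fold for Ftl1, 6.36-fold for Trf, 4.06-fold for Slc40a1 and 3.85-fold for Fth1. Aco1 and Ncoa4 spanned 1.20-fold and 1.21-fold.

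**Figure D1:**
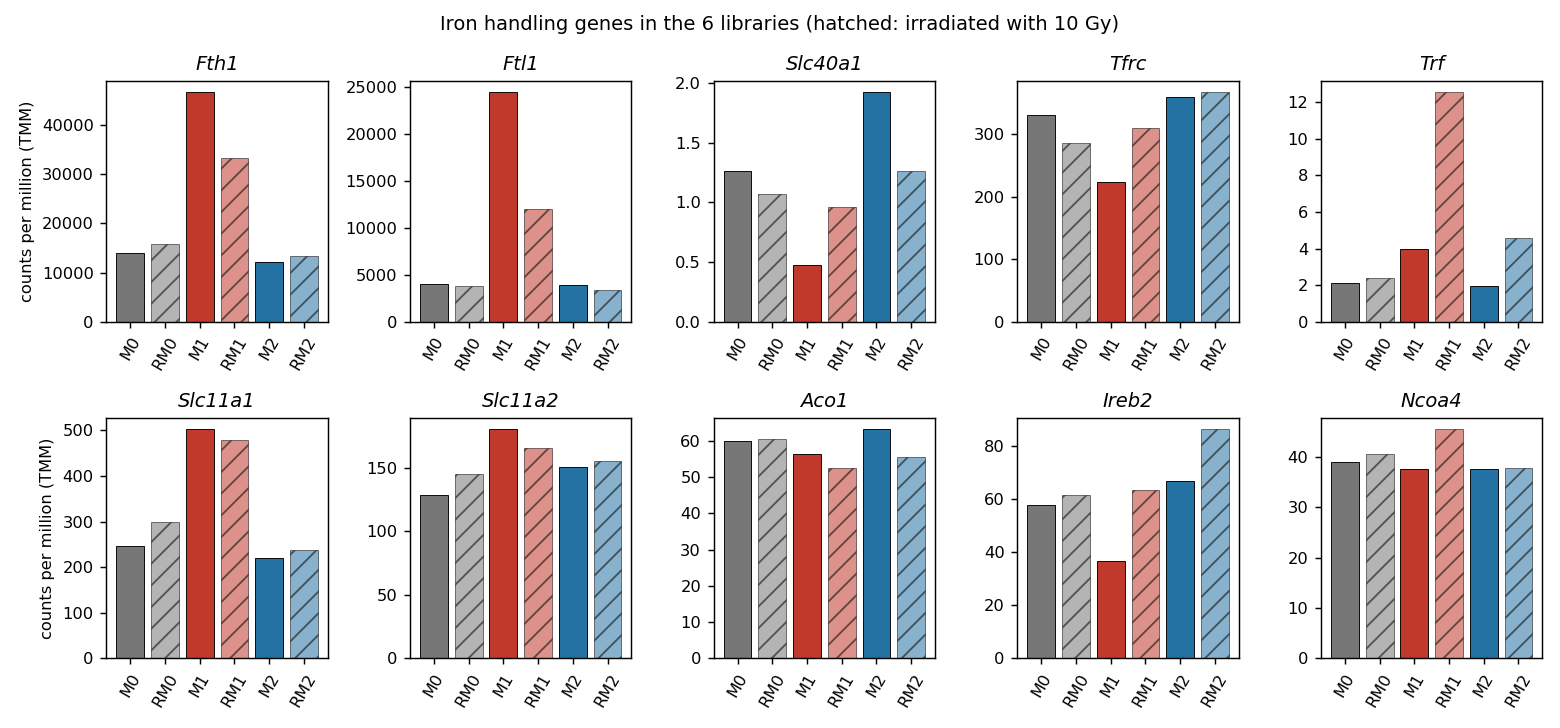
Level of each gene in each library, in CPM after TMM scaling, on a linear axis that starts at 0 in every panel. Each bar is 1 library and hatched bars are irradiated libraries. Fth1 and Ftl1 stood highest in M1 and then in RM1, Slc40a1 was lowest in M1, and Trf was highest in RM1.

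More of these genes were called with M1 polarization than with irradiation or M2 polarization, as was the case over all genes. Between M1 and M0, Fth1, Ftl1 and Slc11a1 were at least 2-fold higher and Slc40a1 was at least 2-fold lower. A 2-fold difference with at least 10 reads in 1 of the 2 libraries was called, and 4 of the 10 genes were called in this comparison beside 22.7% of 11778 genes (3 higher beside 9.37%, 1 lower beside 13.3%). With library totals Slc11a1 was not called and Tfrc and Ireb2 were called lower, which gave 2 higher beside 5.10% of all genes and 3 lower beside 25.3%. Between RM1 and RM0, Fth1, Ftl1 and Trf were called higher, 3 of 10 genes beside 6.16% of all genes tested that were higher and 14.0% in either direction. With library totals the Fth1 difference was 0.82 and was not called. No gene of the 10 was called between M2 and M0, where 1.44% of all genes were, and none between RM2 and RM0, where 2.61% were. Irradiation gave no call in M0 (RM0 against M0, 1.54% of all genes), 2 calls in M1 (5.34% of all genes) and 1 call in M2 (1.97%). In RM1 Trf was higher, beside 3.08% of all genes, and Ftl1 was lower, beside 2.25%, while in RM2 Trf was higher, beside 1.03%. M1, M2 and RM0 were all set against the same M0 library, and its error is shared by these 3 comparisons.

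All 10 genes had enough reads to be compared in each pair of libraries and to enter a test over the 6 libraries with edgeR's quasi-likelihood method, in which polarization states stood in for replicates of irradiation and irradiation levels for replicates of polarization. In the test of M1 polarization (M1 and RM1 against M0 and RM0), 5 of the 10 genes rose and 0 fell at an adjusted p of 0.05, beside 23.3% of 11574 genes that rose and 47.6% that passed in either direction. Counted in either direction, the share of 5 in 10 was near that of all genes. The genes that rose were Ftl1, Fth1, Trf, Slc11a1 and Slc11a2. In the test of irradiation 0 of the 10 genes passed, beside 0.475% of all genes, and 3 of them had an unadjusted p under 0.05, beside 14.7% of all genes. In the test of M2 polarization 0 of the 10 passed, beside 0.19% of all genes, and none had an unadjusted p under 0.05, beside 10.1% of all genes. DESeq2 gave 0 of the 10 genes for irradiation (1.01% of all genes), 0 for M2 (0.354%) and 4 for M1 (38.6%). The M1 and M0 libraries did not overlap in 7 of the 10 genes (72.0% of all genes), the M2 and M0 libraries in 6 (51.8%) and the irradiated and non-irradiated libraries in 0 (6.01%).

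The scale on which the libraries are set bears on every M1 value. With library totals in place of TMM, the median log2 fold change of all genes fell by 0.44 in M1 against M0 and fell by 0.25 in RM1 against RM0, while it was 0.14 higher in RM1 against M1. On that scale the M1 test gave 4 genes that rose (Fth1, Ftl1, Trf and Slc11a1), beside 9.43% of all genes, and 3 that fell (Tfrc, Aco1 and Ireb2), beside 41.0%, with 50.5% passing in either direction. In bulk RNA, fewer cells of a type and less RNA per cell cannot be told apart.

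**Figure D2:**
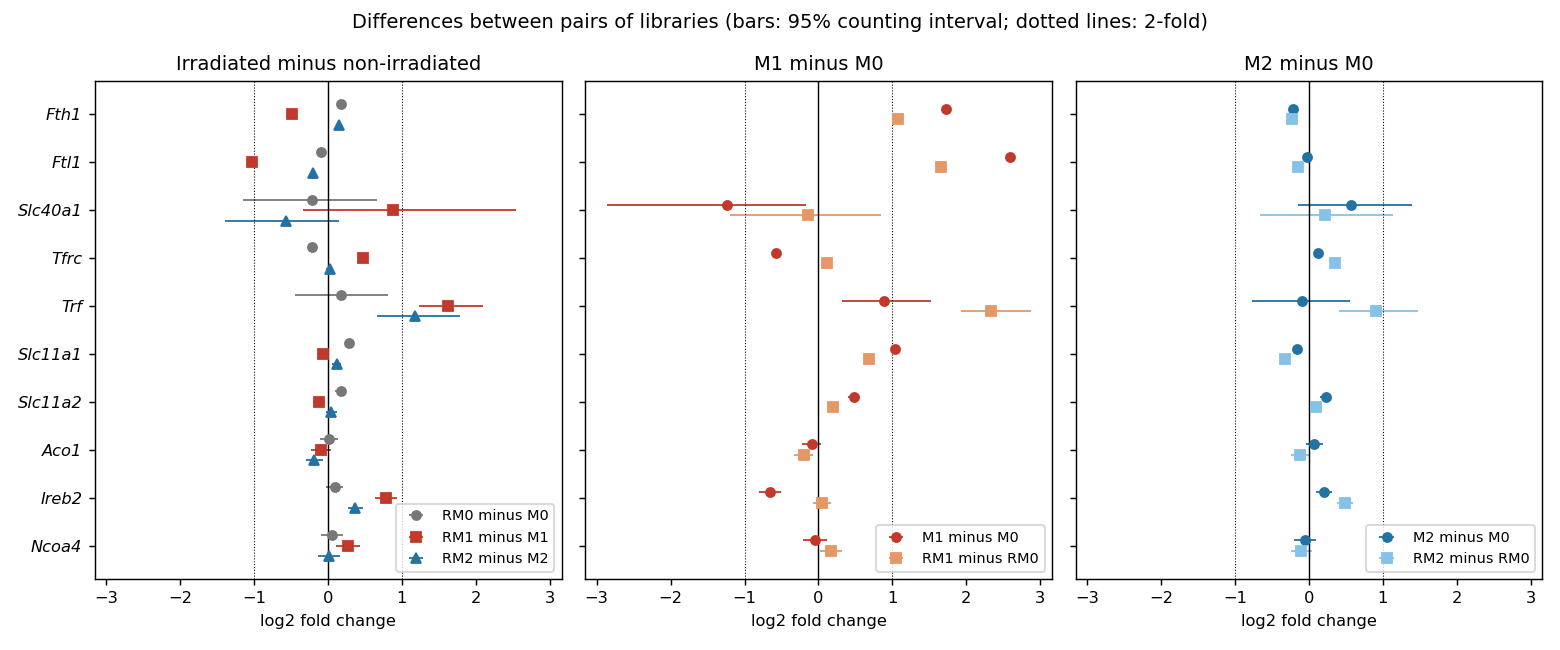
log2 fold changes of the 10 genes between pairs of libraries, with whiskers for the 95% counting interval and dotted lines at 2-fold. Left, irradiated minus non-irradiated in each state. Middle, M1 minus M0 and RM1 minus RM0. Right, M2 minus M0 and RM2 minus RM0. Ftl1 lay at 2.60 in M1 and at 1.67 in RM1, and Trf lay past 2-fold after irradiation in M1 and M2.

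Fth1 (NR_073181, chr19:9980600-9985111) encodes the ferritin heavy subunit, the ferroxidase that oxidizes iron for storage. It had 279068 reads in M0, 689738 in M1 and 245673 in M2, and 310221 in RM0, 554833 in RM1 and 267072 in RM2. No gene of the table had more reads in M1 or in RM1, and in the other 4 libraries Fth1 ranked 4. The M1 libraries lay above the M0 and M2 libraries with and without irradiation, and the groups did not overlap. The log2 fold change was 1.73 between M1 and M0 and 1.07 between RM1 and RM0. Over both, Fth1 rose by a log2 fold change of 1.41 ± 0.239 (SE) with M1 polarization (adjusted p = 0.000799, edgeR).

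Ftl1 (NM_010240, chr7:45457944-45459886) encodes the light subunit, which helps the iron core to form inside the shell. Its reads were 80184 in M0, 361597 in M1 and 80227 in M2 without irradiation, and 74365 in RM0, 200704 in RM1 and 68043 in RM2 with it. M1 and RM1 were again the high libraries and the other 4 lay close together. The log2 fold change was 2.60 between M1 and M0 (6.05-fold) and 1.67 between RM1 and RM0 (3.17-fold). The rise over both was 2.15 ± 0.247 (SE) on the log2 scale, with an adjusted p of 7.24e-05 in edgeR's test. Of the windows of 100 bases in the Ftl1 transcript, 60.4% also occur in the annotated copies Ftl1-ps1, Ftl2-ps, Gm15590 or Gm22133, so reads may have been split among copies and its level is uncertain. For Fth1 this share was 0.964%.

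Ferritin took 1.97% of all reads in M0, 5.69% in M1 and 1.82% in M2, and 2.06% in RM0, 4.00% in RM1 and 1.85% in RM2. The widest 95% counting interval of these shares, that of M1, ran from 5.68 to 5.70%. Irradiated M1 macrophages thus lay between the M1 library and the other 4. Between RM1 and M1, Fth1 differed by a log2 fold change of -0.49 and Ftl1 by -1.02, a 2.03-fold lower level that was called. With library totals the Ftl1 difference was -0.88, and with a trend on GC content removed it was -0.84, both short of 2-fold. In M0 and M2 the irradiation differences of Ftl1 were -0.09 and -0.21 (-0.13 and -0.09 with the GC trend removed). Over the 3 states Ftl1 was lower in 3 of 3 irradiated libraries, by -0.44 ± 0.194 (SE), and did not pass edgeR's test (adjusted p = 0.328).

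The ratio of Fth1 to Ftl1 reads within a library is free of the scaling, though it depends on how shared Ftl1 reads were counted. It was 3.48 in M0 (95% counting interval 3.45 to 3.51), 1.91 in M1 (1.90 to 1.92) and 3.06 in M2. With irradiation the ratio reached 4.17 in RM0 and 3.93 in RM2, and 2.76 in RM1. The light subunit thus had the largest share of ferritin reads in M1. The ratio was higher in the irradiated library in all 3 states, 1.20-fold in M0, 1.45-fold in M1 and 1.28-fold in M2, a difference beyond counting error. With the GC trend removed, an alternative chosen after seeing the data, these were 1.22-fold, 1.35-fold and 1.23-fold. Over the 3 states an exact paired permutation test, two-sided, gave p = 0.25, the smallest that 3 pairs allow (0.50 adjusted over the 4 ratios of this kind).

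**Figure D3:**
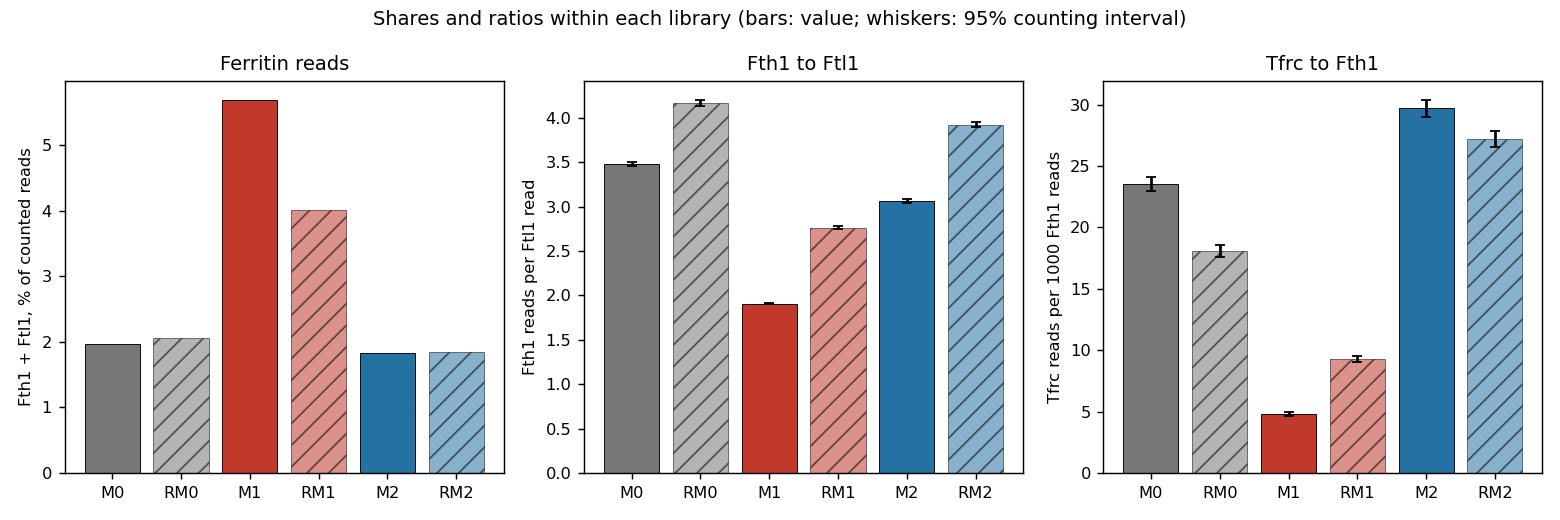
Within-library shares and ratios, with bars for the value and whiskers for the 95% counting interval. Left, Fth1 and Ftl1 reads as a percentage of counted reads. Middle, Fth1 reads per Ftl1 read. Right, Tfrc reads per 1000 Fth1 reads. M1 held the most ferritin reads, 5.69%, with the lowest Fth1 to Ftl1 ratio, 1.91, and the fewest Tfrc reads per Fth1 read.

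Macrophage markers were read in every library: 9 of the 10 listed were found, Lyz2 was the most abundant (199329 reads in M1 to 580239 in RM0), and Mertk was the lowest with 3 to 8 reads. Their summed level was 30506 CPM in M0, 21813 in M1 and 26016 in M2, then 37272 in RM0, 25478 in RM1 and 31932 in RM2. Most of this sum was Lyz2. Without Lyz2 the level on the TMM scale was highest in M1 (8332 CPM) and RM1 (8783 CPM). The other libraries had 6833 CPM (M0), 7660 (RM0), 5985 (M2) and 6815 (RM2). With library totals this order did not hold, and M1 was the lowest library. Single markers also moved in opposite directions. Csf1r fell from 13259 reads in M0 to 4855 in M1, while Fcgr1 rose from 978 to 5200. The irradiated pair went the same way, with 14190 and 5561 reads for Csf1r and 1000 and 4628 for Fcgr1. Among the neutrophil markers 5 of 6 were found, and their summed level was 231.4 CPM in M0 against 340.5 in RM0, 2197 in M1 against 3074 in RM1 and 140.6 in M2 against 176.3 in RM2. S100a8 made up nearly all of that level, with 32464 reads in M1 and 51228 in RM1. Elane and Mpo had at most 1 and 3 reads. Camp had 13 reads in M1 and 1 to 4 in the other libraries, and S100a9 had 19 in RM1 and 1 to 7 in the others. Among the 8 fibroblast and epithelial markers the summed level was 6.05 CPM in M0, 42.7 in M1 and 5.92 in M2, then 8.11 in RM0, 43.8 in RM1 and 9.32 in RM2. It came from Dcn (627 reads in M1 and 726 in RM1), while Col1a2, Col3a1, Epcam, Krt8 and Krt18 were at 0 in all libraries. Among the erythroid markers, Hbb-bs, Hbb-bt, Gata1 and Slc4a1 were at 0 in all 6 libraries and Epor was the most abundant with 27 to 58 reads. The 6 lymphocyte markers gave at most 4 reads, all from Cd79a. The part of S100a8, Dcn and the macrophage markers in the M1 result was not tested.

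Slc40a1 (NM_016917, chr1:45908070-45925594) encodes ferroportin, the iron exporter that hepcidin removes from the cell surface. It was barely read, with 25 reads in M0 against 21 in RM0, 7 in M1 against 16 in RM1 and 39 in M2 against 25 in RM2. The M1 library was the lowest and the M2 library the highest. The difference between M1 and M0 was a log2 fold change of -1.23, with a counting interval from -2.87 to -0.16. After irradiation the M1 difference was -0.14 with an interval from -1.19 to 0.85, which includes no difference. Over both, the estimate was -0.67 ± 0.464 (SE) and did not pass (adjusted p = 0.257, edgeR). Between M2 and M0 it was 0.57, with an interval from -0.15 to 1.40. At this depth a moderate difference in Slc40a1 was not detectable. For every 1000 Tfrc reads there were 3.81 Slc40a1 reads in M0, 2.12 in M1 and 5.34 in M2, and 3.75 in RM0, 3.10 in RM1 and 3.44 in RM2. The intervals of the lowest and the highest overlap (0.851 to 4.37 in M1 and 3.80 to 7.31 in M2).

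Tfrc (NM_011638, chr16:32608896-32632794) encodes the receptor that brings transferrin-bound iron into the cell. It had 6568 reads in M0, 3303 in M1 and 7300 in M2, then 5604 in RM0, 5156 in RM1 and 7268 in RM2. M1 was the low library and the M2 and RM2 libraries were the high ones. The M2 differences, 0.12 without irradiation and 0.36 with it, turned to -0.03 and -0.07 with the GC trend removed. The log2 fold change was -0.57 between M1 and M0 and 0.11 between RM1 and RM0, so the M1 and M0 groups overlapped, and the test over both gave -0.22 ± 0.160 (SE, adjusted p = 0.272, edgeR). The value between M1 and M0 was -1.01 with library totals and -0.35 with the GC trend removed, and the value between RM1 and RM0 turned to -0.14 and -0.12. With library totals Tfrc fell in the M1 test (-0.56, adjusted p = 0.0359, edgeR). Irradiation went with a difference of -0.21 in M0, 0.47 in M1 and 0.03 in M2. The M1 value was 0.13 after removal of the GC trend, and the M2 value turned to -0.03 with library totals and to -0.15 with the trend removed.

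Set against ferritin within a library, Tfrc varied more than on its own. For every 1000 Fth1 reads there were 23.5 Tfrc reads in M0, 4.79 in M1 and 29.7 in M2, and 18.1 in RM0, 9.29 in RM1 and 27.2 in RM2. The M1 value was 0.203 times that of M0, and that of RM1 0.514 times that of RM0. These transcripts carry the hairpins printed above at opposite ends, Fth1 in the 5′ UTR and Tfrc in the 3′ UTR. Whether the hairpins bear on this ratio was not tested.

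Trf (NM_133977, chr9:103208876-103230286) encodes transferrin, the iron carrier of plasma that is made mainly in the liver. Its reads numbered 42 in M0, 59 in M1 and 40 in M2, and 47 in RM0, 209 in RM1 and 91 in RM2. RM1 stood above every other library and RM2 came next. The irradiated library was higher in 3 of 3 states, with log2 fold changes of 0.17 in M0 (counting interval -0.45 to 0.82), 1.63 in M1 (1.23 to 2.09) and 1.17 in M2 (0.67 to 1.79). The effect over the 3 states was 1.10 ± 0.265 (SE), with an unadjusted p of 0.00167 and an adjusted p of 0.113, and did not pass edgeR's test. Over the alternatives the adjusted p ranged from 0.0234, without the M0 and RM0 libraries, to 1.00, in a model without polarization. With M1 polarization Trf rose by 1.73 ± 0.324 (SE, adjusted p = 0.00149, edgeR), and the difference was 0.88 between M1 and M0 (0.45 with library totals) and 2.33 between RM1 and RM0. Of the windows in the Trf transcript, 77.3% are shared with Gm20425, which is annotated over the same stretch and strand of chromosome 9, so reads of the 2 loci cannot be told apart there. The listed coordinates cover 81.0% of the annotated gene.

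Slc11a1 (NM_013612, chr1:74375203-74386051) encodes NRAMP1, which pumps iron and manganese out of the phagosome of macrophages. It had 4870 reads in M0 against 5844 in RM0, 7432 in M1 against 7990 in RM1 and 4454 in M2 against 4731 in RM2. Both M1 libraries were above the other 4. The log2 fold change was 1.03 between M1 and M0 and 0.68 between RM1 and RM0, and the rise over both was 0.86 ± 0.133 (SE, adjusted p = 0.000474, edgeR). With library totals the difference between M1 and M0 was 0.59 and was not called, and that between RM1 and RM0 was 0.43. Irradiation went with 0.28 in M0, -0.07 in M1 and 0.12 in M2, and the M1 value turned to 0.07 with library totals and to 0.05 with the GC trend removed.

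Slc11a2 (NM_001146161, chr15:100387900-100423055) encodes DMT1, which carries iron out of the endosome after transferrin uptake. Its reads lay between 2551 in M0 and 3080 in RM2, with 2663 in M1, 3054 in M2, 2840 in RM0 and 2761 in RM1. On the TMM scale M1 (180.1 CPM) and RM1 (165.6 CPM) were the highest libraries and M0 (128.6 CPM) the lowest. The M1 test gave a rise of 0.34 ± 0.124 (SE, adjusted p = 0.0422, edgeR). This call was lost under DESeq2 (adjusted p = 0.0504) and the direction turned with library totals (-0.01, adjusted p = 0.962, edgeR).

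Ireb2 (NM_022655, chr9:54863755-54912534) encodes IRP2, which is degraded when iron is plentiful. It had 1147 reads in M0, 544 in M1 and 1352 in M2, then 1205 in RM0, 1057 in RM1 and 1709 in RM2. M1 was the low library and RM2 the high one. The irradiated library was higher in 3 of 3 states, by 0.09 in M0 (counting interval -0.03 to 0.21), 0.78 in M1 (0.63 to 0.94) and 0.37 in M2 (0.27 to 0.47), and the effect over the states was 0.41 ± 0.130 (SE, unadjusted p = 0.00925, adjusted p = 0.199, edgeR). With the GC trend removed the values were 0.20 in M0, 0.41 in M1 and 0.18 in M2. M1 polarization went with -0.65 without irradiation and 0.04 with it, and the test over both did not pass (adjusted p = 0.150, edgeR). The first of these was -1.09 with library totals and -0.42 with the GC trend removed, and the second turned to -0.20 under both. Between M2 and M0 the difference was 0.20 and between RM2 and RM0 0.49, and with the GC trend removed these were 0.04 and 0.03.

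Aco1 (NM_007386, chr4:40143265-40199009) encodes IRP1, which works as cytosolic aconitase while it holds an iron-sulfur cluster. Its reads were 1189 in M0 against 1184 in RM0, 832 in M1 against 877 in RM1 and 1282 in M2 against 1104 in RM2. On the TMM scale all 6 libraries lay between 52.6 and 63.2 CPM, the smallest fold from lowest to highest among the 10 genes. The difference between M1 and M0 was -0.09 on that scale and -0.53 with library totals. With totals Aco1 fell in the M1 test (-0.49, adjusted p = 0.0156, edgeR). For each Aco1 read there were 0.965 Ireb2 reads in M0, 0.654 in M1 and 1.05 in M2, and 1.02 in RM0, 1.21 in RM1 and 1.55 in RM2. The ratio was 1.84-fold higher in RM1 than in M1 and 1.47-fold higher in RM2 than in M2. Computed from fold changes with the GC trend removed, an alternative chosen after seeing the data, these were 1.38-fold and 1.25-fold. The counting intervals of M0 (0.889 to 1.05) and RM0 (0.939 to 1.10) overlapped. The ratio was higher in 3 of 3 irradiated libraries. The exact paired permutation test gave p = 0.25, the smallest that 3 pairs allow (0.50 adjusted over the 4 ratios).

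Ncoa4 (NM_001284319, chr14:32159887-32179855) encodes the receptor that delivers ferritin to the lysosome, where its iron is set free. It had 772 reads in M0, 556 in M1 and 760 in M2, then 793 in RM0, 758 in RM1 and 749 in RM2. All 7 differences between libraries lay within ±0.28 on the log2 scale with TMM, and no test passed. Scaled by totals, the difference between M1 and M0 was -0.49. A processed pseudogene, Gm6768, shares 39.8% of the windows of the Ncoa4 transcript.

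Other genes of iron and heme metabolism, in 8 lists, were described by counts of genes in each direction. Over all genes 23.3% rose and 24.3% fell in the M1 test, the background against which the count of each list is set. With library totals that background was 9.43% that rose and 41.0% that fell, and the counts given on that scale are set against it. In the M1 test, 4 of 12 genes of heme breakdown and transport rose and 1 fell, while with library totals 2 rose and 4 fell. The heme oxygenase gene Hmox1, whose product frees iron from heme, had 3144 reads in M0 against 3145 in RM0, 11536 in M1 against 6092 in RM1 and 3409 in M2 against 3027 in RM2. The M1 and RM1 libraries were the high ones, as for ferritin. It rose by 1.77 on the log2 scale (adjusted p = 0.000139, edgeR), and it was lower in RM1 than in M1 by a log2 fold change of -1.09. Blvrb, a biliverdin reductase gene downstream of it, rose by 1.21 (adjusted p = 0.000122, edgeR). Abcg2, a porphyrin exporter gene with 9 to 62 reads, fell. In heme synthesis 2 of 8 genes rose and 3 fell (0 and 3 with library totals), and Uros, the uroporphyrinogen synthase gene, fell by 1.41 on the log2 scale (adjusted p = 0.000227, edgeR).

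Of 10 genes of other iron import, chaperones and mitochondrial carriers, 2 rose and 0 fell, and with library totals 2 rose and 2 fell. Lcn2, whose protein binds bacterial siderophores, had 7173 reads in M0, 31387 in M1 and 7561 in M2, and 5777 in RM0, 29798 in RM1 and 5487 in RM2. It rose by 2.58 (adjusted p = 7.67e-07, edgeR), and the difference between RM1 and M1 was -0.25. Slc25a37, the gene of the mitochondrial iron importer mitoferrin-1, rose by 1.15 (adjusted p = 8.32e-05, edgeR). Among the genes that control the iron regulatory proteins or carry iron-responsive elements, 2 of 7 rose and 3 fell. Fbxl5, the subunit of the ubiquitin ligase that senses iron and marks IRP2 for degradation, rose by 1.12 (adjusted p = 7.55e-05, edgeR), while its partner gene Cul1 fell by 0.82 (adjusted p = 0.00176, edgeR). Herc2, the gene of a ligase that acts on FBXL5, fell by 0.91 (adjusted p = 0.000857, edgeR).

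Of 24 genes of iron-sulfur cluster assembly, 4 rose and 5 fell, among them Iba57 (-1.10, adjusted p = 0.00301, edgeR). With library totals 0 rose and 15 fell. Of 12 ferroptosis and lipid peroxide genes 2 rose and 4 fell, and with library totals 0 rose and 5 fell. Chac1, which breaks down glutathione, fell by 2.08 (adjusted p = 0.000129, edgeR), and Alox5, a lipoxygenase gene, fell by 2.15 (adjusted p = 1.78e-05, edgeR). All 3 genes of the reductases and ferroxidases that could be tested passed, with Steap1 (2.26) and Cp (0.75) higher and Steap3 (-0.57) lower. With library totals Cp did not pass (0.40, adjusted p = 0.0980, edgeR). In the hepcidin axis 1 of 7 rose, the BMP target gene Id1 (1.59, adjusted p = 7.51e-05, edgeR), and 2 fell, Erfe and Neo1, which had at most 31 and 29 reads. Hamp, the hepcidin gene, had 40 reads in M1 and 46 in RM1 against 1 to 3 elsewhere, and too few libraries reached 10 reads for the test. Steap1, Steap3, Cp, Abcg2, Erfe, Neo1 and Hamp are named after their values were seen. In the tests of irradiation and of M2, 0 genes passed in each of the 8 lists, beside 0.475% and 0.19% of all genes. Flvcr1 and Flvcr2 were not analysed here.

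**Figure D4:**
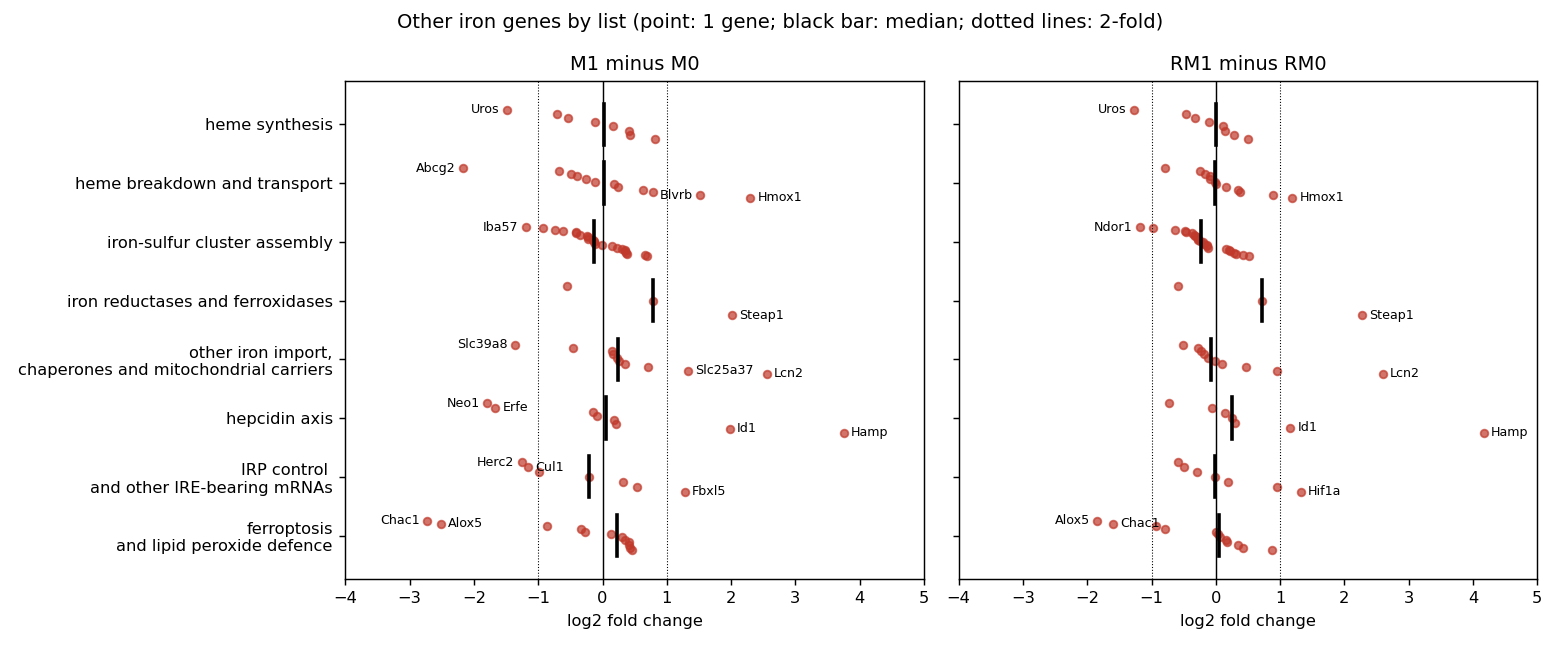
log2 fold changes of other iron genes by list, M1 minus M0 on the left and RM1 minus RM0 on the right. Each point is a gene with at least 10 reads in 1 of the 2 libraries, black bars are list medians, and genes past 2-fold are labelled. Hmox1 and Lcn2 were higher in both panels and Uros, Chac1 and Alox5 lower in both.

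The list medians in M1 against M0 were 0.02 for heme synthesis, 0.03 for heme breakdown and transport, -0.13 for iron-sulfur cluster assembly, 0.78 for the reductases and ferroxidases (3 genes), 0.25 for other import and carriers, 0.05 for the hepcidin axis, -0.20 for control of the iron regulatory proteins and 0.22 for ferroptosis, beside -0.03 for all genes. The 10 iron handling genes had a median of 0.22 in that comparison. In RM1 against M1 the medians were 0.60 for control of the iron regulatory proteins, 0.06 for the reductases and ferroxidases, -0.04 for the hepcidin axis, -0.05 for heme synthesis, -0.09 for heme breakdown and transport, -0.14 for iron-sulfur cluster assembly, -0.26 for ferroptosis and -0.27 for other import and carriers. They stand beside -0.01 for all genes and 0.10 for the 10 genes.

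For the 6 genes that spanned at least 2-fold over the libraries, the genes with the most similar pattern were taken as those with the smallest root mean square difference of centred log2 CPM over the 6 libraries, as a description across 9411 or 9412 genes. Nearest to Fth1 were Plekhn1 (0.06), Ctsl (0.07), which encodes the lysosomal protease cathepsin L, and Mapre2 (0.07). Nearest to Ftl1 were Cd40 (0.07), a costimulatory receptor gene with 582 reads in M0, 2550 in M1 and 1285 in RM1, then Tmsb10 (0.09) and Gapdh (0.16). Gapdh had 152 to 829 reads, and 78.0% of the windows of its transcript occur in other annotated transcripts, so its level is uncertain too. Nearest to Trf were Ptgs2 (0.20), the cyclooxygenase-2 gene, with 74139 reads in M1 and 198747 in RM1, then Syt7 (0.24) and Serpinb2 (0.29). Nearest to Slc11a1 were Mpeg1 (0.04), the gene of the macrophage pore protein perforin-2, Itpkb (0.05) and Rnf157 (0.05). Nearest to Ireb2 were Ubr1 (0.04), Ube4a (0.04) and Tmem144 (0.04), of which Ubr1 and Ube4a encode ubiquitin ligases. Nearest to Slc40a1 were Rab23 (0.13), Chek2 (0.14) and Sla (0.15), a match that rests on at most 39 Slc40a1 reads in a library.

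Besides Fth1 and Ftl1, the tables listed the ferritin genes Fthl17 and Ftmt, the latter for mitochondrial ferritin. Both had 0 reads in all 6 libraries, which allows up to 3 reads in each.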

How the data were processed

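RNA was sequenced from 6 conditions with 1 library each. Per the labels, the submitters' processing notes name Trimmomatic 0.36, HISAT2 2.2.1, HTSeq 0.11.3 and the build mm10. The authors deposited these raw read counts per RefSeq gene without normalization. How reads shared by several loci or strands were counted is not given in the sources used here, nor is whether non-irradiated cells were kept for the further 24 h.

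The deposited tables hold 24062 genes, 8137 of them at 0 in all libraries, and 27 symbols had been turned into dates. Groups came from the sample titles. The median depth was 18359190.5 counts. Counts were scaled with TMM in edgeR 4.0.16 (R 4.3.3), with a prior count of 2 in log2 fold changes. A 2-fold difference with at least 10 counts in 1 of 2 libraries was called, which compares 2 libraries and carries no p. Intervals at 95% are exact Clopper-Pearson intervals and cover counting error only. Irradiation, M1 and M2 effects were tested in 1 additive model of both factors by the quasi-likelihood method of edgeR (11574 genes that reached 10 counts in 3 libraries or more, 2 residual degrees of freedom, Benjamini-Hochberg at 0.05), tested first on simulated data. It assumes that states, or irradiation levels, share an effect. Its estimate of the spread of each gene borrows from all genes tested, so the p-values do not rest on the 2 residual degrees of freedom alone. They measure only the spread among these libraries.

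Differences of within-library ratios over the 3 states had an exact paired permutation test, which was added later. The 10 genes and all lists were chosen with earlier results of these data known. Named were the 10 genes, up to 4 called genes per list with a mean of at least 50 counts, the 3 genes of nearest pattern (mean of at least 100 counts) for each of the 10 that spanned 2-fold, and all ferritin symbols. Transcript lengths, GC content, UTRs and shared windows of 100 bases came from GENCODE M21, and none of the loci sharing windows with the 10 genes is listed in the tables under its own name. Alternatives were DESeq2 1.42.0, library totals, a prior count of 0.25, 1.5-fold and 4-fold thresholds, other filters, removal of a loess GC trend, no covariate, and each state left out. Other steps used matplotlib 3.10.9, scipy 1.17.1, pandas 2.3.3 and numpy 2.4.6 under Python 3.11.15.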

Additional observations from a re-analysis of the deposited data

Results flagged for a closer look

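Several of the genes differed between irradiated and non-irradiated libraries in opposite directions in different states, each time with counting intervals that left out 0. The difference between states was not tested, since each value compares 1 library with 1 other. Fth1 was higher after irradiation in M0 (0.17) and M2 (0.15) and lower in M1 (-0.49), so that M1 differed from M0 by -0.66 and M2 from M1 by 0.64 on the log2 scale. Tfrc was lower in M0 (-0.21) and higher in M1 (0.47), a gap of 0.68, while with the GC trend removed the values were -0.11 and 0.13. Slc11a1 was higher in M0 (0.28) and M2 (0.12) and lower in M1 (-0.07), with gaps of -0.35 and 0.19. Slc11a2 was higher in M0 (0.17) and lower in M1 (-0.12), a gap of -0.29. With library totals in place of TMM the M1 values of Slc11a1 and Slc11a2 were above 0 (0.07 and 0.02), and with the GC trend removed that of Slc11a1 was 0.05.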

How the results depend on the processing

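With 1 library per condition no spread between replicates is known, Slc40a1 and Trf rest on few reads, and the levels of Ftl1, Trf and Ncoa4 depend on how shared reads were counted. The labels give no replicate numbers by which libraries could be paired, and the model with both factors already sets each irradiated library against its own state. The 2 genes called between RM1 and M1 became 1 with library totals (5.98% of all genes), 1 with the GC trend removed (4.38%), 0 at 4-fold (0.734%) and 4 at 1.5-fold (17.8%). At 4-fold the call between RM2 and M2 was lost (0 genes, 0.102% of all genes), 1 of the 4 genes between M1 and M0 was left (5.54%) and 1 of the 3 between RM1 and RM0 (2.90%). At 1.5-fold 1 gene was called between RM2 and RM0 (10.3%). With library totals M1 against M0 gave Fth1 and Ftl1 higher (5.10% of all genes) and Slc40a1, Tfrc and Ireb2 lower (25.3%), and RM1 against RM0 gave Ftl1 and Trf higher (4.25%). The irradiation test called 1 gene without the M0 and RM0 libraries (Trf, 1.46, adjusted p = 0.0234, edgeR; 1.11% of all genes), and the M2 test 1 gene without the M1 and RM1 libraries (Ireb2, 0.35, adjusted p = 0.00945, edgeR; 11.5% of all genes). With the GC trend removed the Ireb2 differences behind the latter were 0.04 between M2 and M0 and 0.03 between RM2 and RM0. In the M1 test Slc11a2 turned to -0.00682 with library totals, and lost its call under DESeq2 (adjusted p = 0.0504), without a filter (0.0564), without the covariate (0.0629) and without the M2 and RM2 libraries (0.156). The calls of Fth1, Ftl1, Trf and Slc11a1 in the M1 test held under all 5 alternatives, with adjusted p up to 0.0286 (Trf). Of 70 fold changes of single genes, 35 moved beyond their counting interval with library totals, 32 with the GC trend removed, 8 with DESeq2 size factors and 0 with a prior count of 0.25. The causes of these shifts were not tested.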
